A study of Mus musculus with 3 samples.

Results

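Hepa1c1c7 is a mouse hepatoma cell line, and 10 genes of bile acid synthesis and transport were examined in it after transfection. They were the synthesis and conjugation genes Cyp7a1, Cyp8b1, Cyp27a1 and Baat, the transporters Slc10a1, Abcb11, Abcc2 and Slco1b2, and the nuclear receptors Nr1h4 and Nr0b2. The members were fixed by name, and their probes were found through the RefSeq accession of each spot, which gave 12 probes for the 10 genes, out of 22911 genes with a symbol on the array. Another 46 genes of the same pathway served as a second list.

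Cells had been transfected with empty vector (pCMV6-Kan/Neo), with an expression clone of Mst1r, which encodes a cell-surface tyrosine kinase, or with one of Slpi, which encodes a secreted protease inhibitor. The purpose was to see which genes respond when either protein is overexpressed in liver tumour cells. Each of the 3 groups was 1 culture measured on 1 single-colour Agilent array from 100 ng of RNA, so no difference below has a replicate check and no test between groups could be made. Transfected and untransfected cells of a dish were measured together, so fewer cells with a transcript and less transcript per cell cannot be told apart.

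Bile acids are made from cholesterol in hepatocytes by a chain of hydroxylases and side-chain enzymes, are joined to taurine or glycine, and are secreted into bile. A transporter of the blood side takes returning bile acids up again, and pumps of the canalicular side export them. The receptor FXR, encoded by Nr1h4, senses bile acids in the cell. It lowers synthesis through its target SHP, encoded by Nr0b2, and it also raises export. Cultured hepatoma cells are known to keep this programme only in part.

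Of the 56605 gene probes, between 46.67% and 48.53% were well above background on each array by the flag of the scanner software. The lowest Processed Signal was 3.26 to 3.74 and the lowest one well above background 16.6 to 18.9, and probes under 15 are called dark. Of 11 hepatocyte or hepatoma markers, 6 were well above background on all arrays (Alb, Afp, Apoa2, Trf, Krt8 and Krt18), a share near the 54.38% of all named genes, so the count does not set these cells apart. Hnf4a, the hepatocyte factor that drives many bile acid genes, was dark on both of its probes on all arrays, with signals between 3.45 and 4.79. Markers of other liver cells were also well above background on all arrays. These were 3 of 5 cholangiocyte, 2 of 5 leukocyte, 2 of 4 endothelial and 4 of 5 stellate cell or fibroblast genes. The leukocyte genes were split. Csf1r (2825, 3293 and 2726 with empty, Mst1r and Slpi vector) and Cd68 were well above background, while Ptprc, the pan-leukocyte marker, Adgre1 and Clec4f were dark. The Mst1r probe (NM_009074) was dark on all arrays, including the one labelled Mst1r vector (4.15, 4.08 and 3.70 with empty, Mst1r and Slpi vector), and the brighter Slpi probe (NM_011414) read 6459, 3843 and 6680. Where the Mst1r and Slpi probes lie relative to the cloned coding sequences was not tested, and the group names below mean the arrays labelled so.

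In these cells 4 members were well above background on all 3 arrays. They were Cyp27a1, Slc10a1, Abcc2 and Nr1h4. Another 3 (Cyp8b1, Baat and Abcb11) were so on a single array, and 3 (Cyp7a1, Slco1b2 and Nr0b2) on none. Among all 22911 named genes 54.38% were well above background on all 3 arrays, 5.77% on a single array and 37.7% on none.

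**Figure D1:**
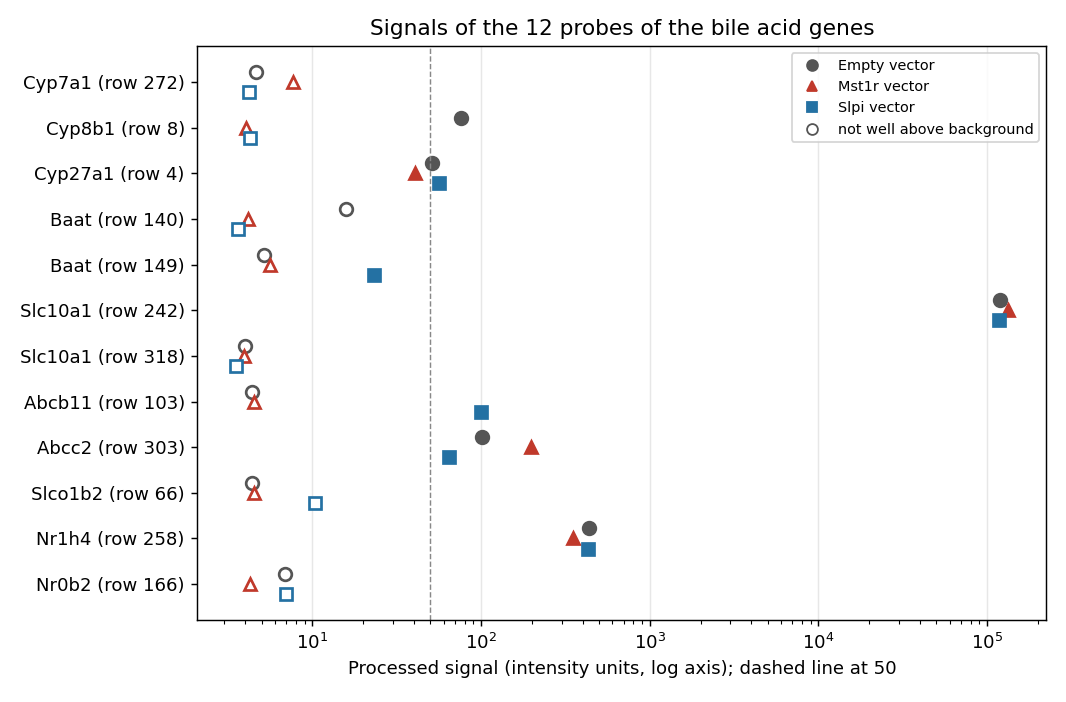
Processed Signal (horizontal, log axis) of each of the 12 member probes (vertical, with the array row) with empty vector (circles), Mst1r vector (triangles) and Slpi vector (squares). Filled symbols are well above background and open symbols are not. The dashed line is the signal minimum of 50. The first Slc10a1 probe lies between 117124 and 132857, Nr1h4 and Abcc2 are filled on every array, and Cyp8b1 and Abcb11 are filled on 1 array each.

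Of the 4 genes of bile acid synthesis, Cyp27a1 was the one well above background on all arrays. Cyp7a1, the rate-limiting enzyme of the classical pathway (NM_007824, chromosome 4), was dark on all 3 arrays, with a Processed Signal of 4.62 for empty vector, 7.68 for Mst1r vector and 4.19 for Slpi vector. No fold can be given for it.

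Cyp27a1 (NM_024264, chromosome 1), the mitochondrial side-chain hydroxylase that starts the alternative pathway, read 51.0 for empty vector, 40.4 for Mst1r vector and 56.0 for Slpi vector, all well above background. The 3 values lay close together. After scaling each array to its 75th percentile, Mst1r vector minus empty vector was -0.10 ± 0.54 and Slpi vector minus empty vector 0.21 ± 0.54 on the log2 scale. The error is the SD between spots of probes printed many times at that brightness, combined over the 2 arrays of a difference, and covers no variation between cultures. Both differences were smaller than it, and the sign with Slpi vector turned to -0.02 under spike-in scaling.

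Cyp8b1 (NM_010012, chromosome 9), the sterol hydroxylase that directs synthesis to cholic acid, read 75.8 for empty vector, 4.04 for Mst1r vector and 4.26 for Slpi vector. Only the empty vector array was well above background. A bound can be given by letting the dim array stand at its own reading or at its lowest reading well above background, whichever is larger. The bound leaves out the spot error of the bright reading. By it, empty vector was at least 3.43-fold above Mst1r vector and at least 4.34-fold above Slpi vector. The probe sits in row 8, near the upper edge of the array, and a signal found on 1 array only in the upper block of the array (the first 4 of 12 blocks of 32 rows) is marked as a possible stray spot. Within 5 rows by 5 columns around it, 3 spots, control spots not left out, were dark on both other arrays. Of them, 2 also exceeded 50 on the empty vector array, the brightest at 85.0. The motif letters shown in capitals in the promoter below (250 bases before to 50 after the start site, RefSeq, GRCm38.p6, chr9:121916256-121916555, minus strand) spell CAAAGTCCA, a binding motif of HNF4, and are given because the Hnf4a probes were dark.

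Cyp8b1: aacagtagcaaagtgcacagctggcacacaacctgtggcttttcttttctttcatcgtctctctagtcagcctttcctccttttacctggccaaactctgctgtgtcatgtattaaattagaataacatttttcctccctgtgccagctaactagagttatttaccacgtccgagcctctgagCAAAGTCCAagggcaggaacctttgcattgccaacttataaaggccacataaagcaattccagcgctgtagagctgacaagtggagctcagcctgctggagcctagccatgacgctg

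These letters begin at base -67 from the start site, and 0.475% of all 32817 promoters in the table hold them on either strand. A match describes the sequence and is not a measured site.

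Baat, which conjugates bile acids to taurine and glycine, had 2 probes of the same accession (NM_007519, chromosome 4). The probe in row 149 read 5.13 for empty vector, 5.59 for Mst1r vector and 23.0 for Slpi vector, and only the last was well above background. By the same bound, Slpi vector was at least 1.28-fold above empty vector and at least 1.10-fold above Mst1r vector, at a signal under the minimum of 50. The SD between spots at this brightness was 0.38 on the log2 scale, and neither bound exceeds it. The other probe, in row 140, read 15.9, 4.16 and 3.63, with none well above background. The signal on the Slpi vector array thus rests on 1 of the 2 Baat probes. Baat overlaps another gene in the annotation, Gm32894.

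Of the 4 transporters, Slc10a1 and Abcc2 were well above background on all arrays, Abcb11 on 1 and Slco1b2 on none. Slc10a1 encodes NTCP, the sodium-dependent uptake carrier of the blood side (chromosome 12). Its probe for NM_011387 read 119470 for empty vector, 132857 for Mst1r vector and 117124 for Slpi vector. Its probe for NM_001177561 read 3.99, 3.91 and 3.52, and was dark on every array. The probes therefore disagreed on whether the gene was detected, and which of them reports it was not tested. RefSeq lists 2 start sites for the gene on GRCm38.p6, both on the minus strand, and both promoters are shown because the probes were made for different transcripts. Capitals mark AGGTCA, the half-site bound by many nuclear receptors.

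Slc10a1, chr12:80968030-80968329: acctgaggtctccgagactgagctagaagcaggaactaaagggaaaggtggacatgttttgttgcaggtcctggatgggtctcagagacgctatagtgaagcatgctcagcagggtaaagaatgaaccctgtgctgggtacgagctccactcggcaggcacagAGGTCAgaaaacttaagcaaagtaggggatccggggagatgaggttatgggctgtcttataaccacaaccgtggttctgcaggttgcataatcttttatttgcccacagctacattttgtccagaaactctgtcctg
Slc10a1, chr12:80968656-80968955: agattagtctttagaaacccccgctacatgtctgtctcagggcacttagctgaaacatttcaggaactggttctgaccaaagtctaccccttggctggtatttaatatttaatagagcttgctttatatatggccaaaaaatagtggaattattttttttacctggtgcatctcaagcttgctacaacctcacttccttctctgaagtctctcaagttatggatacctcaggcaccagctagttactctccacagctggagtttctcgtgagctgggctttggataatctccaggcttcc

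The first window holds AGGTCA at base -87 and the second holds none of the motifs searched. On the bright probe, Mst1r vector was above empty vector by 0.38 ± 0.08 on the log2 scale (1.30-fold) and above Slpi vector by 0.33 ± 0.08 (1.26-fold), while Slpi vector minus empty vector was 0.05 ± 0.08. The first 2 differences exceeded the spot error and the last did not. Mst1r vector stayed the highest under all alternatives run, at 0.15 to 0.42 above empty vector, whereas the sign of Slpi vector minus empty vector turned in some, down to -0.19 under spike-in scaling.

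Abcc2 (NM_013806, chromosome 19) encodes MRP2, the canalicular exporter of conjugated organic anions such as bilirubin glucuronides. It read 101 for empty vector, 198 for Mst1r vector and 64.8 for Slpi vector, all well above background. Mst1r vector was the highest and Slpi vector the lowest. The log2 difference was 1.20 ± 0.24 for Mst1r vector minus empty vector (2.29-fold), -0.57 ± 0.24 for Slpi vector minus empty vector (1.48-fold lower with Slpi vector), and 1.76 ± 0.24 for Mst1r vector minus Slpi vector (3.39-fold). Each exceeded 2 times the spot error. The Slpi vector reading lay just inside the lower edge of its brightness class (log2 signal 6 to 8, SD 0.17). The class under it (4 to 6) had an SD of 0.38. A difference between readings of these 2 classes has an error of 0.42, and the -0.57 would lie within 2 times that. With normexp background correction, Slpi vector minus empty vector shrank to -0.26. The probe lies in row 303, and on no array did any of the spots around it that were dark on both other arrays exceed 50. The promoter of Abcc2 (chr19:43782058-43782357, plus strand) is shown because this was the single member well above background on all arrays that differed at least 2-fold. Capitals mark AGGTCA and, on the other strand, TCAAGG, the core motif of LRH-1, the receptor encoded by Nr5a2.

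Abcc2: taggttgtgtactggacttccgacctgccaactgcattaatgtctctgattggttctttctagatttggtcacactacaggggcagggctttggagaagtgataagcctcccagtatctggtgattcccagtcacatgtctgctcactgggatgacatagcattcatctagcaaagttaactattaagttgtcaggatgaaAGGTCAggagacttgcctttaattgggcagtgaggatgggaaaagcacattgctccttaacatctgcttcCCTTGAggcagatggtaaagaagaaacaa

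AGGTCA begins at base -49, and the reverse complement of TCAAGG begins 21 bases after the start site. Over all promoters, 16.3% hold AGGTCA and 14.4% hold TCAAGG.

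Abcb11 (NM_021022, chromosome 2) encodes the bile salt export pump of the canalicular side. It read 4.39 for empty vector, 4.49 for Mst1r vector and 100.0 for Slpi vector, and only the last was well above background. This was at least 5.58-fold above empty vector and at least 4.79-fold above Mst1r vector. The probe sits in row 103 and is marked as a possible stray spot. Of 10 spots around it that were dark on both other arrays, 1 exceeded 50 on the Slpi vector array, at 59.8. Its promoter (chr2:69342567-69342866, minus strand) is set beside that of Nr0b2 (chr4:133553126-133553425, plus strand), since both genes are textbook targets of FXR.

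Abcb11: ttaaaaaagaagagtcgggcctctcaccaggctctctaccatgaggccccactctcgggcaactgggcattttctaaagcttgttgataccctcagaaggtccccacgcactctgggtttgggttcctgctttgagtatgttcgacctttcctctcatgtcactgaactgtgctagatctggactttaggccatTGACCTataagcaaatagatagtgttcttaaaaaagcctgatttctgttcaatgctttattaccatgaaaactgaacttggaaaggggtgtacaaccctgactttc
Nr0b2: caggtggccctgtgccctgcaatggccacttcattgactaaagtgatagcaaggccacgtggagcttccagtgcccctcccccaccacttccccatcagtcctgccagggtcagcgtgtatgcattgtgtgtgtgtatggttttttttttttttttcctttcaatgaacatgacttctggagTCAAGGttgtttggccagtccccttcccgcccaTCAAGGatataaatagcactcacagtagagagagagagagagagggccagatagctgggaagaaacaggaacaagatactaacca

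In Abcb11 the capitals mark AGGTCA on the other strand, at base -56. In Nr0b2 they mark TCAAGG, at bases -68 and -35. The full inverted repeat of FXR, searched as the exact letters AGGTCANTGACCT on both strands, was in neither window. Of all 32817 promoters, 3 hold these exact letters. Repeats with a changed letter were not searched for, so the search cannot show that a repeat is absent. In the Abcb11 window the marked TGACCT follows aggccat, which has c in place of the T of AGGTCAN. Of the 9 windows of the 8 members with a promoter in the table, 5 held AGGTCA, which the longer repeat contains, beside 16.3% of all promoters. Whether the members differ from all promoters in this was not tested. The members Cyp7a1 and Baat had no entry.

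Slco1b2 (NM_020495, chromosome 6), an organic anion uptake carrier of the blood side, read 4.40 for empty vector, 4.49 for Mst1r vector and 10.4 for Slpi vector. None was well above background, and no fold can be given.

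The nuclear receptors differed in whether they were measured at all. Nr1h4 (NM_001163504, chromosome 10), which encodes FXR, read 437 for empty vector, 353 for Mst1r vector and 429 for Slpi vector. Scaled, the log2 differences were -0.08 ± 0.16 for Mst1r vector and 0.05 ± 0.16 for Slpi vector minus empty vector, and -0.13 ± 0.16 between the 2 vectors. All were within the spot error, and under spike-in scaling the last 2 turned sign, to -0.19 and 0.0046. Slpi vector minus empty vector also turned without scaling, to -0.03. Nr0b2 (NM_011850, chromosome 4), which encodes SHP, read 6.84, 4.27 and 6.94 with empty, Mst1r and Slpi vector, dark on all 3. A probe for the bile acid receptor was thus lit on every array while that of its repressor target was lit on none.

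**Figure D2:**
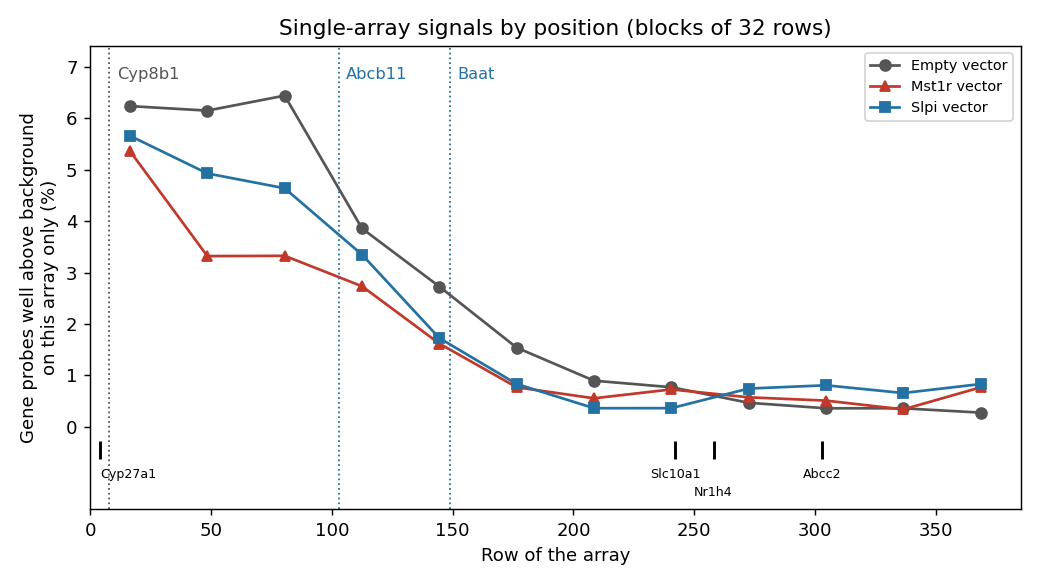
Share of gene probes well above background on 1 array only (vertical, %) by position on the array (horizontal, row, in blocks of 32 rows) for each array. Dotted lines give the rows of the members that were well above background on 1 array, in the colour of that array, and black ticks the rows of the 4 members well above background on all 3. The share is highest in the upper rows, where Cyp8b1, Abcb11 and Cyp27a1 (row 4) lie. Slc10a1, Nr1h4 and Abcc2 lie in rows with low shares.

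The single-array signals of Cyp8b1 and Abcb11 were set beside the array as a whole. In the upper block, 13.99% of gene probes on a single spot were well above background on exactly 1 array, against 2.45% in the rows under it. The share well above background on all 3 arrays was alike, at 43.6% and 43.7%. For gene probes dark on both other arrays, the share with a signal over 50 in the upper block was 4.42% for empty vector, 3.58% for Mst1r vector and 3.35% for Slpi vector. In the rows under it the shares were 0.042%, 0.107% and 0.049%. Whether the Cyp8b1 and Abcb11 signals are stray was not tested, and neither gene had a second probe.

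A gene counted as apart when its scaled signals differed at least 2-fold and the brighter array was well above background and over 50. With Mst1r vector against empty vector, 5 of the 10 members passed the signal filter. Abcc2 was higher and Cyp8b1 was lower. Of all 17956 features tested, 7.85% were apart, 4.4% being higher and 3.45% lower. With Slpi vector against empty vector, 6 members passed, with Abcb11 higher and Cyp8b1 lower, beside 5.99% of features apart (2.73% higher and 3.26% lower). With Mst1r vector against Slpi vector, 5 passed, with Abcc2 higher and Abcb11 lower, beside 6.96% of features (4.22% higher and 2.73% lower). Cyp8b1 and Abcb11 passed the filter only through the array on which they were bright and so had to differ. Both vector arrays share the empty vector array. When both arrays had to be well above background, 4 members could be compared. Abcc2 was then the member apart with Mst1r vector against empty vector, where 3.44% of features were apart (2.47% higher and 0.975% lower). The same held against Slpi vector, where 3.19% were apart (2.36% higher and 0.83% lower). With Slpi vector against empty vector 0 members were apart, beside 2.01% of features (1.03% higher and 0.983% lower). Because scaling shifts all genes alike, Abcc2 was also set against the median difference of the 16959 features with a mean signal over 50. Relative to that median, its log2 difference from empty vector was 1.23 for Mst1r vector and -0.57 for Slpi vector.

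**Figure D3:**
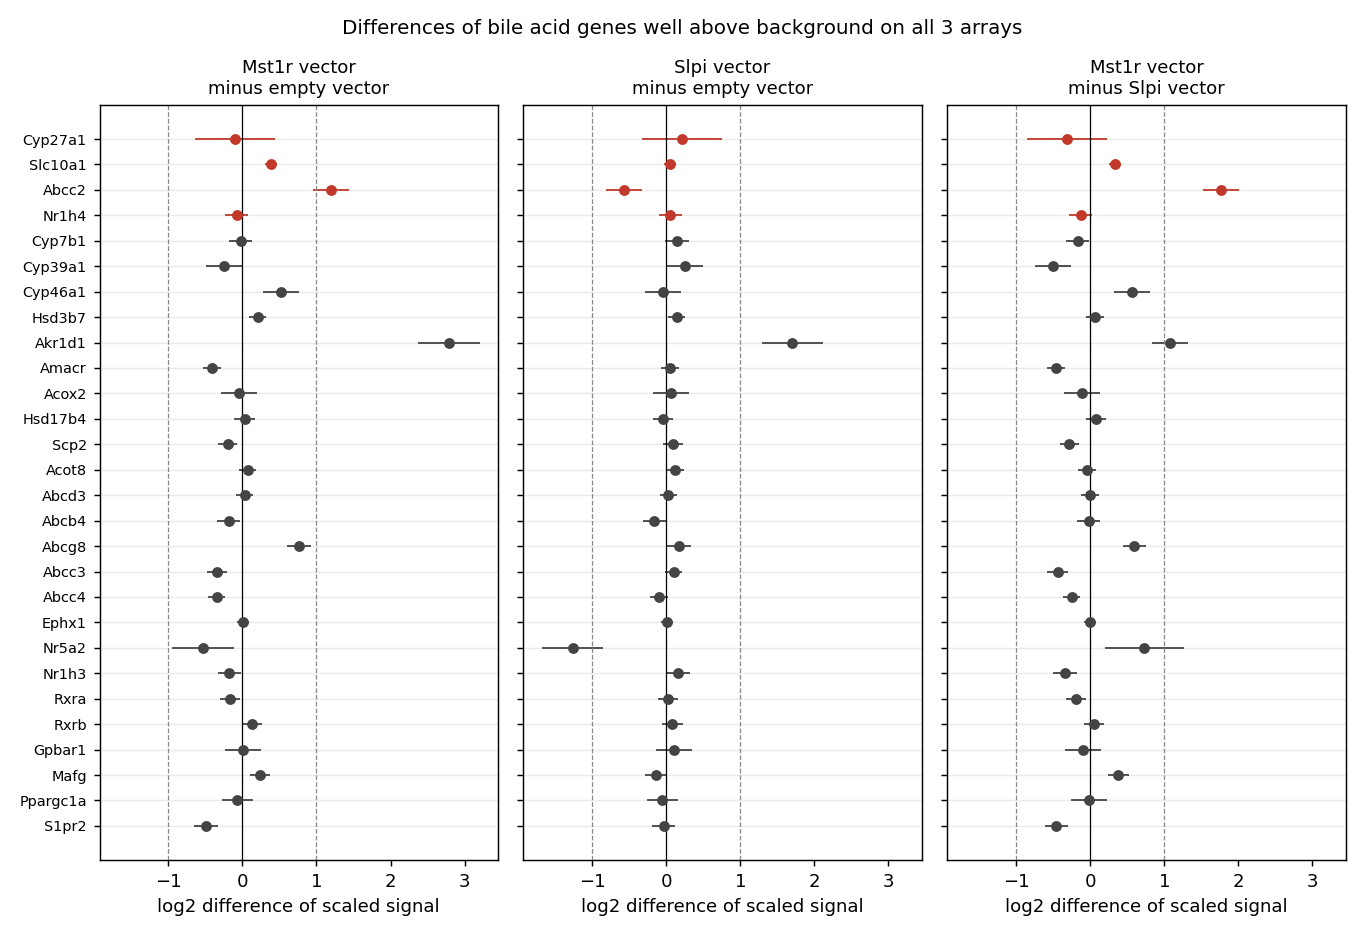
Log2 difference of scaled signal (horizontal) for the 28 bile acid genes (vertical) well above background on all 3 arrays with a mean signal over 50, or members, in each comparison. Red points are members, dark points other pathway genes, bars are the SD between spots, and dashed lines mark 2-fold. Most points lie between the dashed lines, and Abcc2 and Akr1d1 lie to the right of them with Mst1r vector against empty vector and against Slpi vector.

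The other 46 pathway genes were partly measured. On all 3 arrays 25 were well above background, 5 on 1 or 2 arrays, and 16 on none, near the shares of all named genes given above. Of the synthesis genes, 11 of 16 were on all arrays, among them Cyp7b1, the oxysterol hydroxylase of the alternative pathway, and the peroxisomal genes Amacr, Acox2, Hsd17b4 and Scp2. Of the transporters, 5 of 14 were on all arrays. These were Abcb4, the phospholipid exporter, Abcg8, a partner in sterol export, the basolateral exporters Abcc3 and Abcc4, and Ephx1. Of the receptors and regulators, 9 of 16 were on all arrays, including Rxra and Rxrb, the partners of FXR. Hnf4a and the feedback genes Fgfr4, Klb and Fgf15 were among those on none.

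Akr1d1, the steroid reductase of bile acid synthesis, differed most among the pathway genes measured on all arrays. Its probe with the higher mean signal over the 3 arrays (row 280) read 21.0 for empty vector, 123 for Mst1r vector and 64.8 for Slpi vector. Empty vector was the lowest, and the log2 difference from it was 2.79 ± 0.42 with Mst1r vector (6.89-fold) and 1.70 ± 0.42 with Slpi vector (3.26-fold). Its other probe (row 34) read 52.8, 42.9 and 36.5, and differed by -0.07 ± 0.54 and -0.45 ± 0.54. The second Akr1d1 probe thus did not show the differences of the first, and its own differences were within the spot error. On the empty vector array the second probe was the brighter. The first was therefore chosen through the vector arrays, on which it was high.

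Nr5a2, which encodes LRH-1, an activator of Cyp7a1 and Cyp8b1, read 99.5 for empty vector, 58.5 for Mst1r vector and 39.1 for Slpi vector. Against empty vector the Slpi vector array was lower, at -1.27 ± 0.42 on the log2 scale (2.41-fold), and the Mst1r vector array stood at -0.54 ± 0.42. The probe lies in row 115. Abcg8 read 299, 433 and 319, and was higher with Mst1r vector than with empty vector by 0.76 ± 0.16 (1.70-fold). Its single probe lies in row 39, in the upper block, and was well above background on all arrays. Nr1i2, which encodes the xenobiotic receptor PXR, read 97.2 with empty vector alone, with 4.06 and 3.44 on the vector arrays, from row 18. Slco1a4, an organic anion uptake carrier, read 56.9 with Mst1r vector alone, with 4.02 and 11.6 on the others, from row 9. Both are single-array signals in the upper block, which is marked for possible stray spots.

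By the same 2-fold count, 2 of 26 pathway genes tested were higher with Mst1r vector than with empty vector (Akr1d1 and Slco1a4) and 1 lower (Nr1i2), beside 7.85% of all features apart. With Slpi vector against empty vector, 1 of 25 was higher (Akr1d1) and 2 lower (Nr1i2 and Nr5a2), beside 5.99%. With Mst1r vector against Slpi vector, 2 of 25 were higher (Akr1d1 and Slco1a4), beside 6.96%. Nr1i2 and Slco1a4 passed the filter only through the array on which they were bright and so had to differ. Akr1d1 was counted on its row 280 probe, chosen through the vector arrays, and its other probe was not 2-fold apart in any comparison. When both arrays had to be well above background, 24 pathway genes could be compared, and Akr1d1 was higher in each comparison and Nr5a2 lower with Slpi vector against empty vector. The median log2 difference of the 24 pathway genes with a mean signal over 50 was -0.038 with Mst1r vector against empty vector, 0.054 with Slpi vector against empty vector, and -0.033 between the vectors. Over the 16959 features with such a signal it was -0.037, 0.0033 and -0.032. The list as a whole lay near the median of all features in each comparison.

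**Figure D4:**
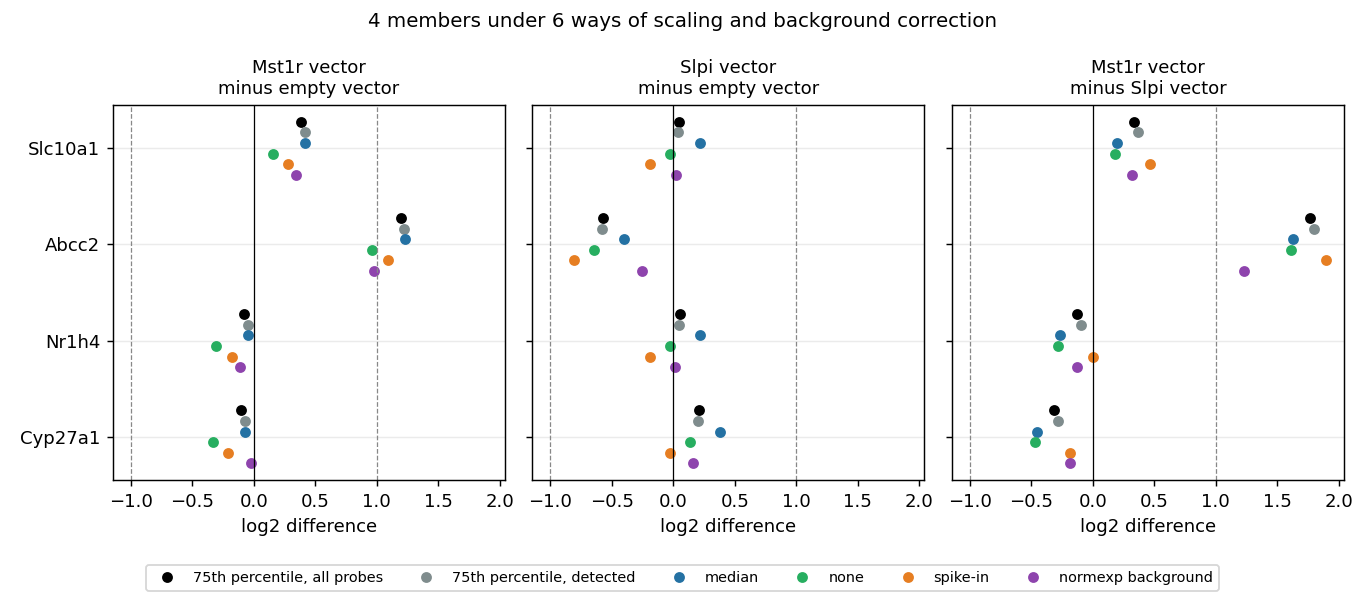
Log2 difference (horizontal) of the 4 members well above background on all arrays (vertical) under 6 ways of scaling or background correction (colours) in each comparison, with dashed lines at 2-fold. Abcc2 lies to the right of 0 in both comparisons of Mst1r vector and to the left with Slpi vector against empty vector under all 6, and crosses below 2-fold with Mst1r vector against empty vector without scaling (0.96) and with normexp (0.97).

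The scaling set the smaller differences. Without scaling, the median of all features moved to -0.27 with Mst1r vector against empty vector. It moved to 0.17 with Slpi vector against empty vector under median scaling and to -0.23 under spike-in scaling. The differences of Nr1h4, of Cyp27a1 and of Slc10a1 between Slpi and empty vector were of this size or smaller, while that of Abcc2 with Mst1r vector was larger.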

How the data were processed

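Hepa1c1c7 cells given the empty, the Mst1r or the Slpi vector were compared, with 1 array each, grouped by the sample labels. Per the file headers, the authors extracted spot intensities with Agilent Feature Extraction 12.0.3.1 (the methods name an earlier version). The deposited intensity values are background-subtracted, spatially detrended signals that are not scaled between arrays. The deposited flags for spots well above background, saturated or outlying are scores of 0 or 1, and 0 spots were saturated. The deposited series table matched the Processed Signal within 0.01 (log2) for 100.0% of 56305 probes on a single spot.

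From these intensities, log2 Processed Signal was averaged over unflagged spots and the 75th percentile of the array was subtracted, as the methods name. Accessions were named through RefSeq (GRCm38.p6) for 32994 of 56605 probes. The array design is on another build, so gene coordinates were not used. Promoters were taken from the RefSeq table. A gene was represented by its brightest probe. The technical error is the SD between spots of probes printed at least 10 times on 1 array. On the log2 scale this SD fell from 0.69 for the dimmest spots (log2 signal under 3) to 0.057 for the brightest (over 14). Precision is limited by the number of arrays.

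All 10 members were named with every probe. Of the other pathway genes, those well above background on at least 1 array with a signal over 50 could be named, and genes that were not lit are named in counts. The members and lists were chosen with earlier results of these data known. Alternatives were other scalings, normexp background correction (limma 3.58.1, R 4.3.3), outlier spots kept, the series table, all probes of a gene, the rows under the upper block of the array, no signal minimum and 10-fold. The requirement of both arrays and the use of median signals for normexp were chosen after seeing the data. Calculations used Python 3.11.15, numpy 2.4.6 and pandas 2.3.3 and were tested on simulated data.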

Additional observations from a re-analysis of the deposited data

How the results depend on the processing

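With 1 array a group, only the technical error could be measured, and dim probes are bounded by background. The sign turned for Slpi vector minus empty vector in Slc10a1, Nr1h4 and Cyp27a1, and between the vectors in Nr1h4, whose reported differences were all within the spot error. Among the differences of single members, 121 stayed within the spot error of the reported value under an alternative and 21 moved by more. Each member probe lay on 1 spot. Keeping outlier spots, the series table and the rows under the upper block therefore had to return the reported value. Those runs are counted among the 121 and are no check of it. The lower rows below are those under the upper block of the array. For members given as bounds, the measured log2 difference of Slpi vector minus empty vector was 1.10 for Abcb11 and -0.92 for Cyp8b1 with normexp, and 0.096 for Baat with the mean over both probes.

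The count of members at least 2-fold apart was 2 in each comparison. With Mst1r vector against empty vector it was 1 without scaling, with normexp, in the lower rows and with both arrays well above background. The member counted was not the same throughout. It was Cyp8b1 without scaling and with normexp, where Abcc2 fell under 2-fold (0.96 and 0.97 on the log2 scale). In the lower rows and with both arrays it was Abcc2. With Slpi vector against empty vector the count was 1 with normexp (Abcb11) and 0 in the lower rows and with both arrays. Between the vectors the count was 1 with normexp, in the lower rows and with both arrays, each time Abcc2. Members well above background on at least 1 array numbered 7, and 4 in the lower rows. Those well above background on all 3 arrays numbered 4, and 3 in the lower rows. With a signal over 50 in place of the flag they also numbered 3.

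The pathway genes apart numbered 3, 3 and 2 in the same order. The first became 1 in the lower rows and with both arrays. The second became 1 with normexp, in the lower rows and at 10-fold. The third became 1 with median scaling, without scaling, in the lower rows and with both arrays, and 0 with normexp and at 10-fold. The median difference of the pathway genes was -0.27 without scaling with Mst1r vector, and 0.22 with median scaling and -0.18 with spike-in scaling with Slpi vector, each against empty vector.

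Over all features, 1410, 1067 and 1229 were apart. These became 685, 526 and 610 with normexp, 288, 80 and 270 in the lower rows, 590, 344 and 541 with both arrays, 2714, 2252 and 2426 without a signal minimum, and 611, 552 and 541 at 10-fold. Counts at 10-fold take readings that are not above background as they stand. The pathway gene counted with Slpi vector against empty vector is Nr1i2, whose bound is at least 5.56-fold. Fewer features enter in the lower rows and with both arrays. Dropping the signal minimum lets more features enter, and 10-fold is a stricter cut-off. For normexp, which adds an offset of 50 to the signals, and for the other scalings the cause was not tested. Normexp on mean signals, as first planned, was not run because the files used here carry median signals. No paired analysis was possible because each group held 1 array.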
